A study of Mus musculus with 12 samples.

Results

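The genes described here are the 20 cytosolic aminoacyl-tRNA synthetase genes and 13 genes of the integrated stress response, read in whole mouse kidneys labelled Grhl2 knockout with Myc overexpression, Myc overexpression, or wildtype. They were found by gene symbol: all 33 of 33 listed symbols were present among the 46403 genes of the count table, and all 33 passed the filter on low counts that left 23742 genes to be tested. The rule uses symbols and no measured value, but the members were chosen with earlier results of these data known. Counts of members set beside all genes therefore describe a chosen set.

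An aminoacyl-tRNA synthetase joins an amino acid to its matching tRNA, the step that supplies charged tRNAs to the ribosome. Several of these enzymes are held with scaffold proteins in a multisynthetase complex, and others work outside it. When charged tRNA runs short, or when proteins misfold in the endoplasmic reticulum, kinases that phosphorylate the initiation factor eIF2 slow general translation while the mRNA of the transcription factor Atf4 is translated more, and Atf4 then drives genes for amino acid synthesis and transport, for tRNA charging and for the stress response itself. Because much of this control acts on translation and protein phosphorylation, which RNA sequencing does not measure, the values below are mRNA levels only.

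The study examined how the epithelial transcription factor Grainyhead-like 2 bears on the growth of kidney cysts. Polyadenylated RNA from whole right kidneys of untreated mice was sequenced in 12 libraries. The Grhl2KO_Myc group held 4 libraries, labelled Grhl2 knockout with Myc overexpression, from the cross of HoxB7-Cre; Grhl2flox/+ mice with R26StopFLMYC; Grhl2flox/flox mice. The Myc group held 3 libraries labelled Myc overexpression, for which the cross is not given. Their library names hold HET, where those of the other groups hold KO and WT, and the labels do not say which allele HET refers to, so intact Grhl2 in these kidneys is not established. The wildtype group held 5 libraries, and the name stands for R26StopFLMYC; Grhl2 flox/flox mice, so that these controls also carried floxed Grhl2 alleles and the MYC transgene behind a stop cassette. The HoxB7-Cre driver recombines in the ureteric lineage, which forms the collecting ducts and is a minority of the cells of a whole kidney. Ages are not given in the labels. Nothing in the labels ties each replicate to a mouse of its own, and the p-values then measure only the spread between these samples, which may be technical in part.

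Libraries held 52973520 to 108164810 counts, and levels are given as TMM-scaled CPM, the share of a library's counts taken by a gene. Grhl2 averaged 21.04 ± 2.78 CPM in Grhl2KO_Myc kidneys, 29.9 ± 2.71 CPM in Myc kidneys and 25.8 ± 2.04 CPM in wildtype kidneys (SD, n = 4, 3 and 5). It was lower in Grhl2KO_Myc than in Myc kidneys (log2 difference -0.51, edgeR adjusted p = 0.0443), and the difference from wildtype did not pass the test (log2 difference -0.29, adjusted p = 0.0816). The mouse Myc gene did not pass the test in any of the 3 comparisons (adjusted p = 0.554, 0.420 and 0.999). Kidneys Grhl2KO_Myc 3, Grhl2KO_Myc 4 and wildtype 4 stood apart with proximal tubule scores of -1.04, -0.91 and -1.15, against -0.05 to 0.79 in the other 9 kidneys; the score is the mean log2 deviation of 30 marker genes from their mean over all libraries. Kidney Myc 1 had 5.55% of its counts in ribosomal RNA-linked genes, against 0.161% to 0.581% in the others. Y-linked Ddx3y was detected in 2 of 4 Grhl2KO_Myc, 1 of 3 Myc and 1 of 5 wildtype libraries. Xist, the RNA of the silenced X chromosome, was under 5 CPM in 3 of 4 Grhl2KO_Myc, 1 of 3 Myc and 1 of 5 wildtype libraries and at 870.7 CPM or more in the others. Kidney Grhl2KO_Myc 3 had neither, with 0 CPM of Ddx3y and 0.213 CPM of Xist. Each group held libraries with Ddx3y and others with Xist, so no group came from a single mouse.

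In Grhl2KO_Myc kidneys 11 of the 20 synthetase genes were higher than in wildtype kidneys, by 1.34-fold or less, and 9 did not pass the test; of the 13 stress genes 12 did not pass it. Of the 33 genes, 12 were higher and none was lower in Grhl2KO_Myc kidneys at an adjusted p under 0.05 in edgeR's quasi-likelihood test, against 4.06% of all genes tested called higher and 2.61% called lower, 6.67% in all. With DESeq2, 17 were higher and Eif2ak3 was lower, and limma-voom called the same 12 as edgeR. The 12 were 11 of the 20 synthetases (Cars, Gars, Hars, Iars, Kars, Mars, Rars, Vars, Yars, Farsa and Farsb) and 1 of the 13 stress genes, the asparagine synthetase gene Asns. Among genes with a mean of at least 10 CPM, the abundance range of every synthetase, 5.51% were called higher. In whole-kidney RNA, fewer cells of a type and less RNA per cell cannot be told apart.

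All 20 synthetases had a log2 difference above 0 against wildtype, with a median of 0.19 and a range of 0.08 to 0.42, while the median over all genes tested was -0.01. An unadjusted p under 0.05 was reached by 16 of the 20, and by 22% of all genes tested. The 13 stress genes had 7 differences above 0 and 6 below, with a median of 0.05. Leaving out kidney wildtype 4 raised the number of genes called to 20, with 19 higher and 1 lower. Leaving out Grhl2KO_Myc 3 or Grhl2KO_Myc 4 left 5, wildtype 1 left 7, and wildtype 2 or wildtype 3 left 6 in each case. Leaving out all 3 kidneys with low proximal tubule scores left 12 called, of which 8 were synthetases. Because libraries without Xist were unevenly spread over the groups, the fit was repeated with a covariate: detection of Ddx3y left 8 of the 33 called, and detection of Xist left 2, Mars (log2 difference 0.24, adjusted p = 0.024) and Asns (0.80, adjusted p = 0.0203). In the Xist fit all 20 synthetases still had a difference above 0, between 0.07 and 0.38, and 556 of all genes were called.

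**Figure D1:**
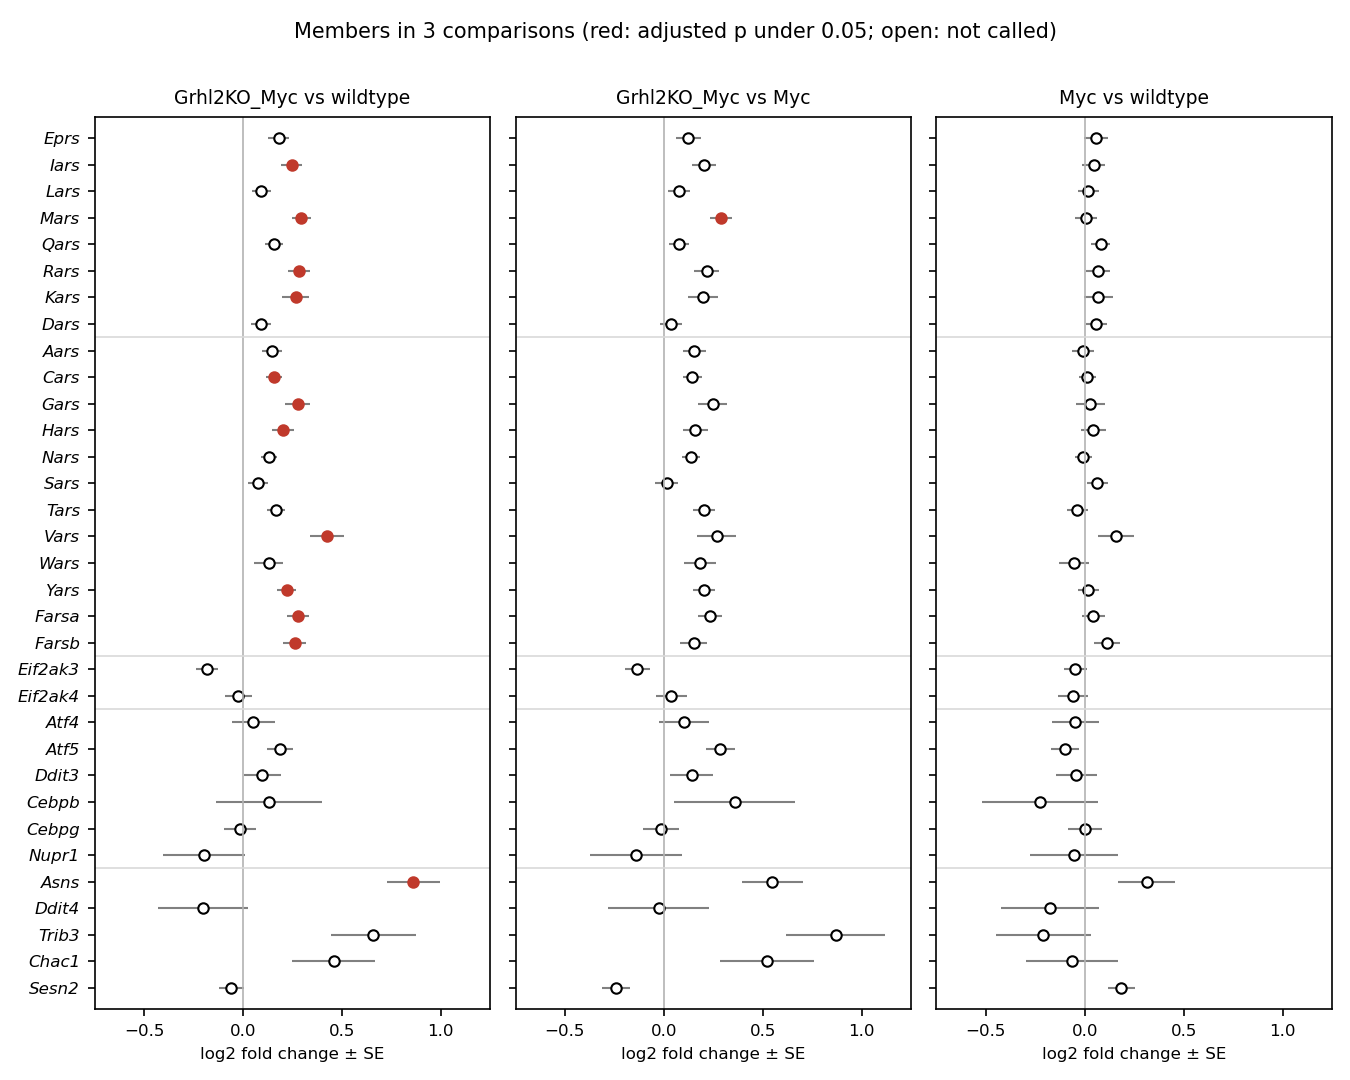
Log2 difference of each of the 33 genes in 3 comparisons (Grhl2KO_Myc against wildtype, Grhl2KO_Myc against Myc, and Myc against wildtype kidneys), with the standard error of the edgeR fit as bars, red points for genes with an adjusted p under 0.05 and open points for the others. In Grhl2KO_Myc against wildtype, synthetases lie between 0.08 and 0.42 and stress genes between -0.20 and 0.86.

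The sum over the 20 synthetases was 1782, 1851, 1929 and 2010 CPM in Grhl2KO_Myc kidneys, 1639, 1687 and 1743 CPM in Myc kidneys, and 1593, 1618, 1588, 1721 and 1666 CPM in wildtype kidneys. The lowest Grhl2KO_Myc kidney was above every kidney of the other groups. The group means of the sum were 1893 ± 98.4 CPM in Grhl2KO_Myc, 1690 ± 51.6 CPM in Myc and 1637 ± 56.2 CPM in wildtype kidneys (SD, n = 4, 3 and 5). Gene by gene, 12 of the 20 synthetases had all 4 Grhl2KO_Myc kidneys above all 5 wildtype kidneys and none had all 4 below, against 5.67% and 3.81% of all genes tested. Within a group the same kidney was often the highest: Grhl2KO_Myc 4 had the highest value of its group for 17 of the 20, Myc 3 for 15 and wildtype 4 for 14. The share of all genes highest in these kidneys was not counted. Grhl2KO_Myc 4 and wildtype 4 had low proximal tubule scores, -0.91 and -1.15, and Myc 3 did not, at 0.36. The part of this in the order of the kidneys was not tested.

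**Figure D2:**
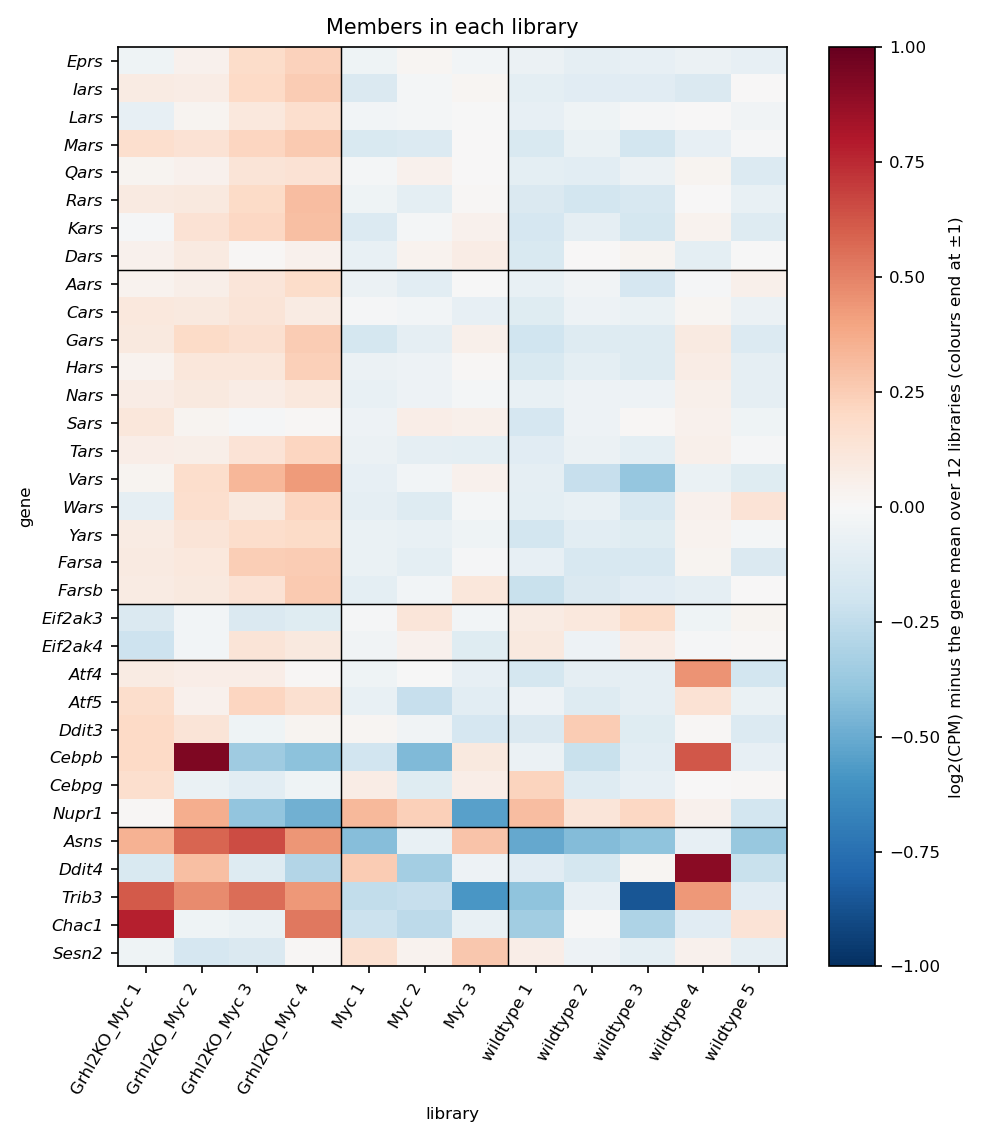
Log2 CPM of the 33 genes in the 12 kidneys, shown as the deviation of each value from the gene's mean over all libraries, with synthetases above stress genes and the Grhl2KO_Myc kidneys on the left. The Grhl2KO_Myc columns are above the mean for most synthetases, the stress genes show no common direction, and kidney wildtype 4 stands out for Atf4, Ddit4, Trib3 and Cebpb.

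Of the 8 synthetases in the multisynthetase complex, 4 were called higher in Grhl2KO_Myc than in wildtype kidneys, with a median log2 difference of 0.21 over the 8. Mars, the methionyl-tRNA synthetase, charges the tRNA that starts every protein as well as the one used within proteins (ENSMUSG00000040354.14, chr10:127296221-127311786, minus strand, GRCm38). It was at 71.8, 70.7, 74.4 and 76.7 CPM in Grhl2KO_Myc kidneys, 57.8, 58.3 and 64.2 CPM in Myc kidneys and 57.7, 61.1, 56.4, 60.6 and 63.4 CPM in wildtype kidneys. All 4 Grhl2KO_Myc values lay above those of the other 8 kidneys. The log2 difference from wildtype was 0.29 (SE 0.0494, adjusted p = 0.00463), a 1.23-fold level. Reads from 68 bases that exons of Mars share with Ddit3 on the opposite strand could not be told apart, since the library kit does not mark strand.

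Rars, the arginyl-tRNA synthetase (ENSMUSG00000018848.4, chr11:35808381-35834506, minus strand), was at 65.7, 66.3, 70.4 and 76.5 CPM in Grhl2KO_Myc kidneys, 59.9, 57.9 and 62.3 CPM in Myc kidneys and 56.05, 54.5, 55.3, 62.1 and 58.9 CPM in wildtype kidneys. The lowest Grhl2KO_Myc kidney exceeded the highest of the other 8 kidneys, and the log2 difference from wildtype was 0.28 (SE 0.0561, adjusted p = 0.0116). Iars, the isoleucyl-tRNA synthetase, was at 99.2, 98.7, 108 and 112 CPM in Grhl2KO_Myc kidneys, 84.9, 92.9 and 94.99 CPM in Myc kidneys and 87.9, 86.9, 86.7, 84.9 and 94.2 CPM in wildtype kidneys. Its groups did not overlap either, with a log2 difference of 0.25 (SE 0.0535, adjusted p = 0.0185). Kars, which encodes both the cytosolic and the mitochondrial lysyl-tRNA synthetase, was at 97.7, 109, 114 and 121 CPM in Grhl2KO_Myc kidneys, 90.01, 97.5 and 102 CPM in Myc kidneys and 87.8, 92.8, 87.3, 101 and 90.2 CPM in wildtype kidneys. Kidney Grhl2KO_Myc 1 was below wildtype 4 here, so these groups overlapped, and the log2 difference was 0.27 (SE 0.0672, adjusted p = 0.0360). The other members of the complex, Eprs, Qars, Lars and Dars, had log2 differences of 0.18, 0.16, 0.09 and 0.09 and did not pass the test (adjusted p = 0.0667, 0.0592, 0.297 and 0.302).

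Of the 12 synthetases outside the complex, 7 were called higher, with a median log2 difference of 0.19. Vars, the valyl-tRNA synthetase (ENSMUSG00000007029.16, chr17:35000987-35016322, plus strand), had the largest difference of the 20. It was at 167, 185, 206 and 219 CPM in Grhl2KO_Myc kidneys, 155, 161 and 169 CPM in Myc kidneys and 154, 139, 125, 156 and 150.4 CPM in wildtype kidneys. The lowest Grhl2KO_Myc kidney was below the highest Myc kidney but above all wildtype kidneys, and the level against wildtype was 1.34-fold (log2 difference 0.42, SE 0.0846, adjusted p = 0.0117). Farsa and Farsb encode the alpha and beta subunits of phenylalanyl-tRNA synthetase. Farsa (ENSMUSG00000003808.18, chr8:84856989-84869257, plus strand) was at 53.7, 54.1, 59.7 and 60.2 CPM in Grhl2KO_Myc kidneys, 48.2, 47 and 50 CPM in Myc kidneys and 47.6, 44.99, 45.2, 51.4 and 45.6 CPM in wildtype kidneys. Farsb was at 57, 57.6, 59.7 and 64.8 CPM in Grhl2KO_Myc kidneys, 50.3, 52.97 and 58.4 CPM in Myc kidneys and 46.3, 48.8, 49.8, 50.6 and 53.96 CPM in wildtype kidneys. Both subunits were higher in every Grhl2KO_Myc kidney than in every wildtype kidney, with log2 differences of 0.28 (SE 0.0544, adjusted p = 0.0108) for Farsa and 0.26 (SE 0.0598, adjusted p = 0.0241) for Farsb; kidney Myc 3 reached the Grhl2KO_Myc range for Farsb. Exons of Farsb share 248 bases with Sgpp2.

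Gars, which encodes the glycyl-tRNA synthetase of both cytosol and mitochondria, was at 106, 114, 111 and 119 CPM in Grhl2KO_Myc kidneys, 87.7, 93.6 and 103 CPM in Myc kidneys and 86.6, 90.8, 90.8, 106 and 90.5 CPM in wildtype kidneys. Kidney wildtype 4 was close to the lowest Grhl2KO_Myc kidney, and the log2 difference was 0.28 (SE 0.0650, adjusted p = 0.0268). Yars, the tyrosyl-tRNA synthetase, was at 63.2, 65.3, 67.7 and 68.1 CPM in Grhl2KO_Myc kidneys, 57.2, 56.9 and 57.96 CPM in Myc kidneys and 52.5, 55.5, 55.1, 61.3 and 58.9 CPM in wildtype kidneys. Every Grhl2KO_Myc kidney was above all others (log2 difference 0.22, SE 0.0484, adjusted p = 0.0190). Cars and Hars, the cysteinyl- and histidyl-tRNA synthetases, passed the test closest to its threshold. Cars was at 39.9, 39.5, 40.4 and 39.2 CPM in Grhl2KO_Myc kidneys, 36.7, 36.2 and 34.97 CPM in Myc kidneys and 33.96, 35.8, 35.3, 37.4 and 35.6 CPM in wildtype kidneys. Hars was at 49.2, 51.8, 51.97 and 56.7 CPM in Grhl2KO_Myc kidneys, 46, 46.3 and 48.5 CPM in Myc kidneys and 43.2, 44.9, 43.8, 50.6 and 45.1 CPM in wildtype kidneys. The Cars groups did not overlap, whereas wildtype 4 lay within the Grhl2KO_Myc range of Hars; the adjusted p was 0.0391 for Cars and 0.0493 for Hars. Each of these passed in 7 of 24 alternative fits. Exons of Hars share 195 bases with its mitochondrial neighbour Hars2, and exons of Cars share 211 bases with Gm15580, so part of these counts could belong to the overlapping gene.

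**Figure D3:**
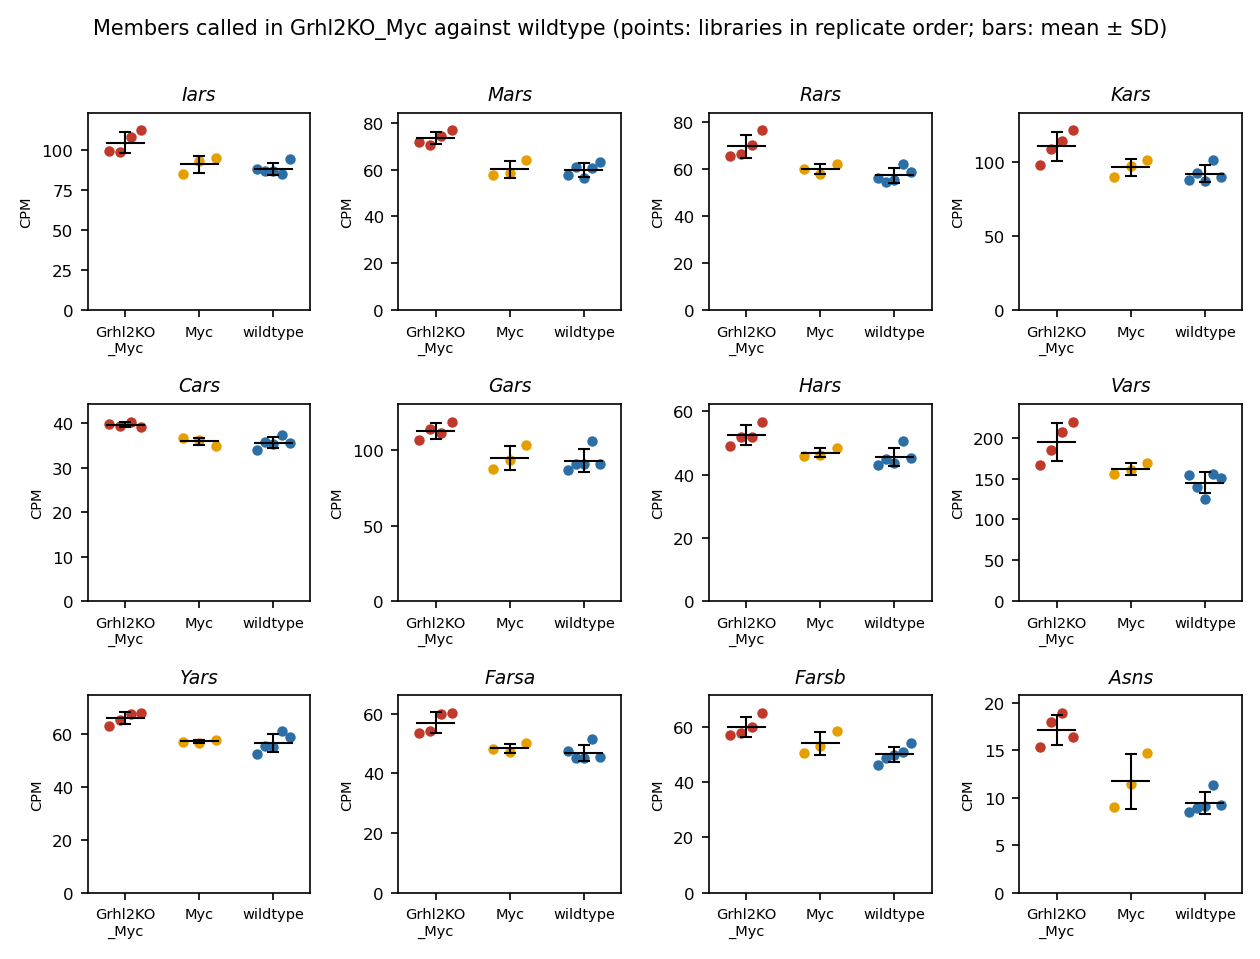
CPM of the 12 genes called higher in Grhl2KO_Myc than in wildtype kidneys, with 1 point per library and bars for mean ± SD; axes start at 0. Asns is at a mean of 17.1 CPM in Grhl2KO_Myc, 11.7 CPM in Myc and 9.42 CPM in wildtype kidneys, while the 11 synthetases differ between groups by 1.34-fold or less.

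The 5 other synthetases outside the complex, Aars, Nars, Sars, Tars and Wars, had log2 differences of 0.15, 0.13, 0.08, 0.17 and 0.13 against wildtype, and adjusted p values of 0.109, 0.0650, 0.396, 0.0546 and 0.318. Nars and Tars, the asparaginyl- and threonyl-tRNA synthetases, had all 4 Grhl2KO_Myc kidneys above all wildtype kidneys without passing the test. Exons of Aars overlap those of Exosc6 on the same strand, so part of the Aars counts could belong to that gene. Wars, the tryptophanyl-tRNA synthetase and a known interferon-inducible gene, was at 64.5, 76.95, 73.4 and 79.5 CPM in Grhl2KO_Myc kidneys, 64.5, 62.6 and 67.4 CPM in Myc kidneys and 64.1, 65.1, 61.5, 70.5 and 75.4 CPM in wildtype kidneys. Kidneys Grhl2KO_Myc 2 and wildtype 5, with interferon response scores of 1.47 and 1.05 against -0.63 to 0.34 in the other kidneys, were among the higher Wars values of their groups; the part of this response in the Wars result was not tested.

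The kinases that phosphorylate eIF2 did not pass the test in edgeR. Eif2ak3, the PERK kinase of the endoplasmic reticulum, was at 37.8, 40.9, 37.7 and 38.5 CPM in Grhl2KO_Myc kidneys, 41.4, 45.3 and 40.9 CPM in Myc kidneys and 44.1, 44.99, 47.4, 40.5 and 42.6 CPM in wildtype kidneys. The Grhl2KO_Myc values were the lower ones, overlapping wildtype 4 alone (log2 difference -0.18, SE 0.0545, adjusted p = 0.0685). Eif2ak4, the GCN2 kinase that responds to uncharged tRNA, was at 34.7, 39.3, 43.8 and 42.97 CPM in Grhl2KO_Myc kidneys, 39.2, 41.3 and 36.95 CPM in Myc kidneys and 43.02, 38.6, 42.2, 39.8 and 40.4 CPM in wildtype kidneys. Its groups overlapped (log2 difference -0.02, SE 0.0686, adjusted p = 0.884). Exons of Eif2ak3 share 485 bases with Gm43292.

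None of the 6 transcription regulators passed the test in Grhl2KO_Myc against wildtype kidneys in edgeR, DESeq2 or limma-voom, 1 had an unadjusted p under 0.05, and their median log2 difference was 0.08. Atf4, the central activator of the response (ENSMUSG00000042406.8, chr15:80255184-80257541, plus strand), was at 120.1, 119, 119 and 114 CPM in Grhl2KO_Myc kidneys, 109.9, 113 and 107 CPM in Myc kidneys and 100.4, 106, 107, 155 and 100.1 CPM in wildtype kidneys. The 4 Grhl2KO_Myc kidneys lay above 4 of the 5 wildtype kidneys and below wildtype 4, which alone put the wildtype SD at 23.2 CPM. With all kidneys the log2 difference was 0.05 (SE 0.110, adjusted p = 0.820); without wildtype 4 it was 0.19 (adjusted p = 0.0063), and without the 3 kidneys low in proximal tubule transcripts it was 0.20 (adjusted p = 0.0225). Adjusting for the proximal tubule score as a covariate gave -0.03.

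Atf5, a related factor whose mRNA is also translated more under eIF2 phosphorylation, was at 32.3, 29.4, 33.2 and 31.9 CPM in Grhl2KO_Myc kidneys, 27.2, 24.3 and 26.6 CPM in Myc kidneys and 27.5, 26.2, 26.9, 31.6 and 27.2 CPM in wildtype kidneys. The log2 difference from wildtype was 0.19 (SE 0.0648, adjusted p = 0.110), and wildtype 4 was the sole wildtype kidney within the Grhl2KO_Myc range. Ddit3, which encodes the CHOP factor of prolonged stress, was at 9.62, 9.13, 8.13 and 8.51 CPM in Grhl2KO_Myc kidneys, 8.49, 8.16 and 7.43 CPM in Myc kidneys and 7.57, 9.98, 7.69, 8.43 and 7.59 CPM in wildtype kidneys. Its groups overlapped, with a log2 difference of 0.10 (SE 0.0953, adjusted p = 0.592). Cebpb and Cebpg encode leucine zipper partners of Atf4. Cebpb was at 18.3, 30.5, 12.5 and 12.04 CPM in Grhl2KO_Myc kidneys, 13.97, 11.7 and 17.1 CPM in Myc kidneys and 15.3, 13.7, 14.9, 24.6 and 15.1 CPM in wildtype kidneys. Kidneys Grhl2KO_Myc 2 and wildtype 4 were the highest, and Cebpb varied more within the Grhl2KO_Myc group (SD 8.59 CPM) than between group means.

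Cebpg was at 47.1, 40, 38.8 and 40.6 CPM in Grhl2KO_Myc kidneys, 43.95, 38.5 and 43.7 CPM in Myc kidneys and 48.7, 38.1, 39.4, 41.9 and 42.2 CPM in wildtype kidneys. These groups overlapped (log2 difference -0.01, SE 0.0799, adjusted p = 0.937). Nupr1, a small stress-induced nuclear protein gene, was at 3.76, 4.78, 2.83 and 2.67 CPM in Grhl2KO_Myc kidneys, 4.66, 4.39 and 2.56 CPM in Myc kidneys and 4.60, 4.06, 4.30, 3.83 and 3.28 CPM in wildtype kidneys. The groups overlapped, and the lowest and highest values of the Grhl2KO_Myc group enclosed all wildtype values (log2 difference -0.20, SE 0.206, adjusted p = 0.624). For Cebpb the log2 difference was 0.13 (SE 0.266, adjusted p = 0.816), and it was 0.72 (adjusted p = 0.039) without the 3 kidneys low in proximal tubule transcripts. Exons of Cebpb share 312 bases with Tmem189, and exons of Atf5 share 82 bases with Nup62 and Il4i1.

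Asns was the sole effector called. It encodes the enzyme that makes asparagine from aspartate and glutamine, and it is among the best known targets of Atf4 (ENSMUSG00000029752.12, chr6:7675169-7693254, minus strand). Asns was at 15.3, 17.99, 18.9 and 16.4 CPM in Grhl2KO_Myc kidneys, 8.98, 11.4 and 14.7 CPM in Myc kidneys and 8.47, 8.90, 9.12, 11.4 and 9.26 CPM in wildtype kidneys. Every Grhl2KO_Myc kidney was above every other kidney, and the level was 1.82-fold that of wildtype (log2 difference 0.86, SE 0.132, adjusted p = 0.00270). Adjusted for the proximal tubule score, the log2 difference was 0.81 (adjusted p = 0.00423).

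Trib3, a pseudokinase that restrains Atf4 and CHOP, was at 1.16, 1.05, 1.12 and 1.02 CPM in Grhl2KO_Myc kidneys, 0.640, 0.645 and 0.507 CPM in Myc kidneys and 0.575, 0.716, 0.418, 1.03 and 0.701 CPM in wildtype kidneys. Its level was low in all groups, and wildtype 4 reached the Grhl2KO_Myc range while the other wildtype kidneys did not. The log2 difference from wildtype was 0.66 (SE 0.214, adjusted p = 0.0897), and 0.85 (adjusted p = 0.00943) without wildtype 4. Chac1, a glutathione-degrading enzyme gene, was at 0.826, 0.466, 0.459 and 0.694 CPM in Grhl2KO_Myc kidneys, 0.415, 0.402 and 0.458 CPM in Myc kidneys and 0.378, 0.480, 0.389, 0.444 and 0.530 CPM in wildtype kidneys. Kidneys Grhl2KO_Myc 1 and Grhl2KO_Myc 4 were above all others and the remaining pair of that group was within the wildtype range (log2 difference 0.46, SE 0.209, adjusted p = 0.223).

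Sesn2 and Ddit4 encode inhibitors of the mTORC1 growth pathway. Sesn2, which senses leucine, was at 27.9, 25.6, 26.1 and 29.01 CPM in Grhl2KO_Myc kidneys, 32.2, 29.5 and 34.8 CPM in Myc kidneys and 30.1, 27.8, 26.9, 29.6 and 27.1 CPM in wildtype kidneys. The Myc kidneys were the highest on average, and the Grhl2KO_Myc and wildtype values overlapped (log2 difference -0.06, SE 0.0636, adjusted p = 0.634). Ddit4, also known as REDD1, was at 28.01, 38.4, 28.5 and 25.4 CPM in Grhl2KO_Myc kidneys, 37.2, 24.6 and 30.1 CPM in Myc kidneys and 28.9, 27.7, 31.6, 58.2 and 26.7 CPM in wildtype kidneys. Kidney wildtype 4 was far above all others, and the log2 difference between Grhl2KO_Myc and wildtype was -0.20 (SE 0.227, adjusted p = 0.649).

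**Figure D4:**
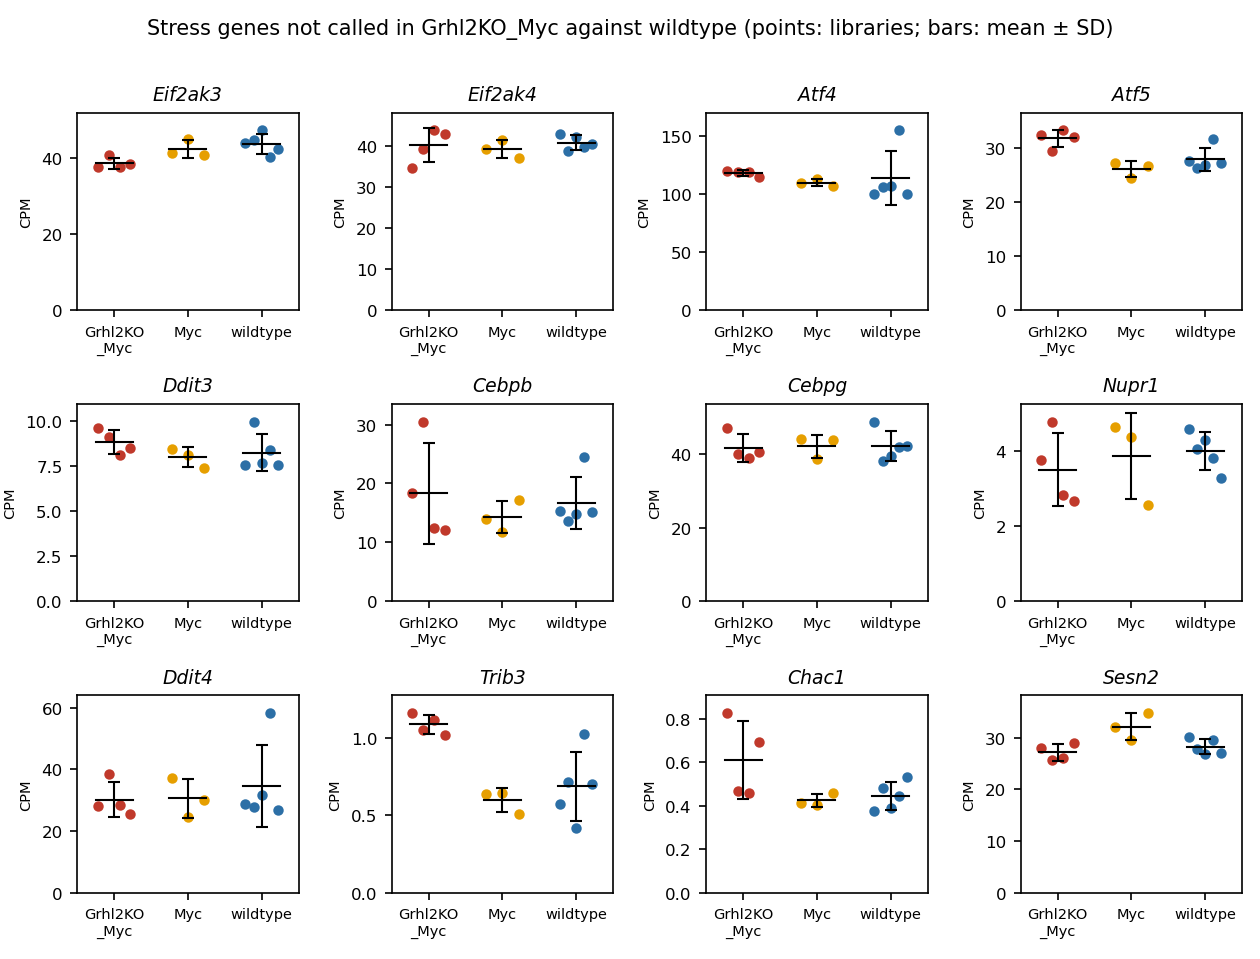
CPM of the 12 stress genes that did not pass the test in Grhl2KO_Myc against wildtype kidneys, with 1 point per library and bars for mean ± SD; axes start at 0. The wildtype point far above its group for Atf4 (154.9 CPM), Ddit4 (58.2 CPM) and Cebpb (24.6 CPM) is kidney wildtype 4.

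Other genes of these pathways, taken from lists chosen with earlier results in view, were read from the same fit. Of 27 further Atf4 targets tested, 11 were higher and 1 was lower in Grhl2KO_Myc than in wildtype kidneys, with a median log2 difference of 0.22, against 4.06% of all genes tested called higher and 2.61% called lower. Psat1, an enzyme of serine synthesis, averaged 91.8 ± 6.996 CPM in Grhl2KO_Myc and 57.7 ± 5.47 CPM in wildtype kidneys (log2 difference 0.67, adjusted p = 0.000987). Mthfd2, a mitochondrial folate enzyme, averaged 26.96 ± 2.30 CPM and 14 ± 2.62 CPM in the same groups (log2 difference 0.95, adjusted p = 0.00137). The amino acid transporter gene Slc7a5 was at 48.5 ± 4.63 CPM in Grhl2KO_Myc and 31.2 ± 2.92 CPM in wildtype kidneys (log2 difference 0.64, adjusted p = 0.000797). The lipoprotein receptor gene Vldlr was the lower one, at 92.5 ± 6.19 CPM in Grhl2KO_Myc and 126 ± 6.85 CPM in wildtype kidneys (log2 difference -0.45, adjusted p = 0.000783). The remaining 8 called higher were Aldh18a1, Slc1a5, Slc6a9, Stc2, Slc7a1, Shmt2, Phgdh and Xpot. The 12 calls fell to 7 without Grhl2KO_Myc 4, to 7 without wildtype 3 and to 7 with Xist detection as a covariate.

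Of 17 mitochondrial synthetases, 4 were higher and none was lower, with a median log2 difference of 0.15. Over all genes tested 4.06% were called higher, the share to set beside each count of this paragraph. The 17 include Lars2, which was also counted above among the ribosomal RNA-linked genes. Lars2 was at 5512 CPM in Myc 1 and at 149 to 514.1 CPM in the other kidneys, so its counts may not reflect synthetase mRNA. Tars2 averaged 40.2 ± 2.498 CPM in Grhl2KO_Myc and 33.2 ± 1.84 CPM in wildtype kidneys (adjusted p = 0.0133), and Yars2, Vars2 and Ears2 had adjusted p values of 0.0260, 0.0369 and 0.0479. These calls rested on few libraries: 2 were made without Grhl2KO_Myc 1, Myc 2, Myc 3 or wildtype 1, 1 without Grhl2KO_Myc 3, wildtype 2 or wildtype 3, and 0 without Grhl2KO_Myc 4, without the 3 kidneys low in proximal tubule transcripts, or with Xist detection as a covariate. Of the 3 scaffold genes of the multisynthetase complex, Eef1e1 (log2 difference 0.38, adjusted p = 0.00368) and Aimp2 (0.32, adjusted p = 0.0448) were higher, and Aimp1 had a difference of 0.17 (adjusted p = 0.177). A list of 9 genes held the subunits of eIF2 and of its exchange factor eIF2B, and the separate initiation factor gene Eif2a. Of these 9, Eif2b5 (0.24, adjusted p = 0.0231) and Eif2s1 (0.23, adjusted p = 0.0308) were higher. The smallest adjusted p among 7 other genes that act on eIF2 phosphorylation was 0.182, for the double-stranded RNA-activated kinase gene Eif2ak2 (log2 difference -0.23), and 1 of the 7 had an unadjusted p under 0.05. Of 14 genes of the unfolded protein response outside the Atf4 branch, 1 was called higher (beside 4.06% called higher and 6.67% called in either direction among all genes tested, so 1 of 14 is near the background). This was Manf, at 64.5 ± 3.93 CPM in Grhl2KO_Myc and 50.99 ± 5.79 CPM in wildtype kidneys (adjusted p = 0.0267).

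Transcripts of some of the kidney's cell types also differed between these groups, and the part of cell types in the results was not tested. The summed level of 30 proximal tubule markers ranged from 2325 to 5656 CPM in Grhl2KO_Myc, from 4966 to 6440 CPM in Myc and from 2058 to 7541 CPM in wildtype kidneys. All 30 had a log2 difference below 0 in Grhl2KO_Myc against wildtype kidneys, with a median of -0.51, and 1 was called lower. Over all genes tested, 2.61% were called lower and 4.06% higher. These shares stand beside each count of markers called here. For 6 thick limb and distal tubule markers the sums were 739 to 1074 CPM in Grhl2KO_Myc, 1168 to 1440 CPM in Myc and 819.9 to 1514 CPM in wildtype kidneys. All 6 had a log2 difference below 0 against wildtype, with a median of -0.63, and none was called. For 11 collecting duct markers the sums were 629.8 to 797.8 CPM, 684.1 to 825.4 CPM and 534 to 852.7 CPM in the groups Grhl2KO_Myc, Myc and wildtype. Of these 11, 1 was called higher and 1 lower in Grhl2KO_Myc than in wildtype kidneys. Their log2 differences ran from -0.932 to 0.745. The 5 podocyte markers summed to 637.6 to 704.8 CPM in Grhl2KO_Myc and 861.8 to 939.1 CPM in wildtype kidneys, with 2 of the 5 called lower. The 6 endothelial markers summed to 563.3 to 599.7 CPM in Grhl2KO_Myc and 626.3 to 680.5 CPM in wildtype kidneys, with 2 of the 6 called lower. The podocyte and endothelial sums did not overlap between these groups. Gene by gene, 3.81% of all genes tested had all Grhl2KO_Myc kidneys below all wildtype kidneys. The 11 macrophage and lymphocyte markers summed to 136 to 172.5 CPM in Grhl2KO_Myc and 119.3 to 146.3 CPM in wildtype kidneys. Of the 10 tested, 1 was called higher. No marker of these lists was at 0 in all libraries of a group. In a fit that included the proximal tubule score, 11 of the 33 genes were called, of which 10 were synthetases.

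The comparison of Grhl2KO_Myc with Myc kidneys sets kidneys labelled Grhl2 knockout with Myc overexpression against those labelled Myc overexpression, whose library names hold HET. It uses the same Grhl2KO_Myc kidneys as the comparison with wildtype. Mars alone was called among the 33 genes, as higher in Grhl2KO_Myc, against 0.358% of all genes tested called higher and 0.484% called lower, 0.842% in all. Its log2 difference was 0.29 (SE 0.0566, adjusted p = 0.0355), a 1.22-fold level. The call was lost without any 1 of the 4 Grhl2KO_Myc kidneys, without Myc 1 or Myc 2, without wildtype 1 or wildtype 2, and with Xist detection as a covariate (adjusted p = 0.0636), and leaving out wildtype 4 raised the number of genes called to 7.

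All 20 synthetases had a log2 difference above 0 in Grhl2KO_Myc against Myc kidneys, with a median of 0.17 and a range of 0.01 to 0.29, beside a median of 0.00 over all genes tested. All Grhl2KO_Myc kidneys were above all Myc kidneys for 11 of the 20, while 8.95% of all genes tested were arranged so. An unadjusted p under 0.05 was reached by 15 of the 20, beside 13.3% of all genes tested. Among the 13 stress genes none was called in edgeR, 6 had an unadjusted p under 0.05, DESeq2 called 3 (Asns, Atf5 and Trib3) and limma-voom called none. Asns, Atf4, Atf5, Trib3 and Chac1 had all 4 Grhl2KO_Myc kidneys above the 3 Myc kidneys, and Sesn2 and Eif2ak3 had all 4 below the lowest Myc kidney, for Eif2ak3 by less than the rounding of the values above; 7.89% of all genes tested had all Grhl2KO_Myc kidneys below all Myc kidneys. Asns averaged 17.1 ± 1.62 CPM in Grhl2KO_Myc and 11.7 ± 2.88 CPM in Myc kidneys (log2 difference 0.55, SE 0.152, adjusted p = 0.134). Trib3 averaged 1.09 ± 0.0634 CPM and 0.598 ± 0.0781 CPM in these groups, a 1.82-fold level with an adjusted p of 0.148. Atf4 itself had a log2 difference of 0.10 (SE 0.126, adjusted p = 0.763). Of the further Atf4 targets Slc7a5 was called, with 48.5 ± 4.63 CPM in Grhl2KO_Myc and 35.6 ± 1.95 CPM in Myc kidneys (adjusted p = 0.0443), and Mthfd2 had an adjusted p of 0.0511.

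Myc overexpression without the Grhl2 knockout label was compared with wildtype. None of the 33 genes was called in edgeR, DESeq2 or limma-voom, with edgeR calling 1 of all 23742 genes (0.00421%). Asns and Sesn2 were the members with an unadjusted p under 0.05, which 4.62% of all genes tested reached. Asns had a log2 difference of 0.31 (SE 0.144, adjusted p = 0.999) and Sesn2 of 0.18 (SE 0.0687, adjusted p = 0.999). Of the 20 synthetases 16 had a difference above 0, with a median of 0.04, and Eprs alone had all 3 Myc kidneys above all 5 wildtype kidneys, an arrangement seen for 2.22% of all genes tested. Of the 13 stress genes, 2 had a difference above 0 and 11 below, with a median of -0.06. The Myc kidneys are shared with the comparison above, so that the differences of the 3 groups are not independent.

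Levels were compared between genes per kilobase of the exon width deposited with the counts. Averaged over all libraries, Atf4 was the highest of the 33 genes on this scale at 66.3 CPM per kilobase, followed by Kars at 44.1, Nars at 42.5, Gars at 32.0 and Vars at 29.5 CPM per kilobase. The deposited widths of Kars and Nars were 2249 and 2632 bases, against 4464 and 4355 exon bases in GENCODE. The order of the synthetases therefore depends on the width used. The lowest synthetases per kilobase were Eprs at 8.71 and Cars at 7.99 CPM per kilobase. Before division by its deposited width of 18102 bases, Eprs averaged 157.7 CPM, so its low place depends on that width. Asns was at 4.59, Nupr1 at 1.52, Trib3 at 0.376 and Chac1 at 0.302 CPM per kilobase, the lowest of the 33. On this scale the synthetases lay in a narrower band of levels than the stress genes.

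**Figure D5:**
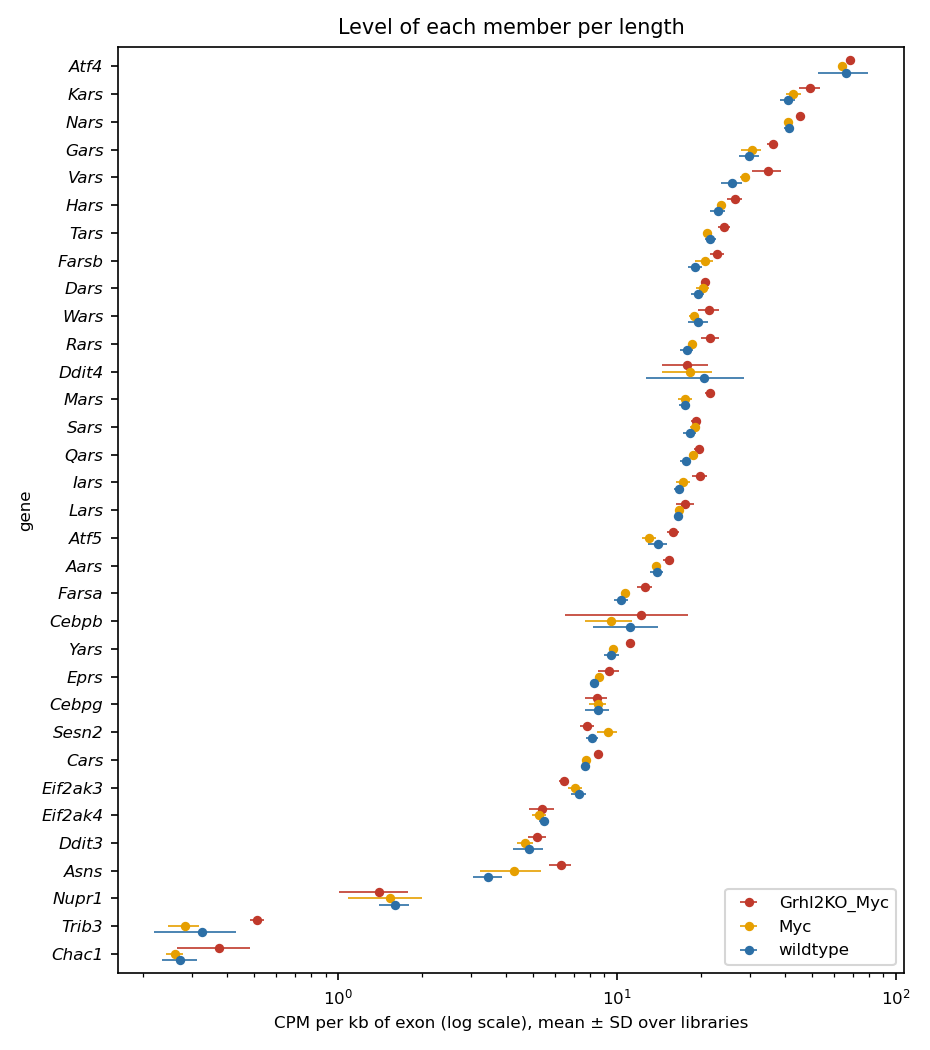
Mean level of each of the 33 genes in CPM per kilobase of deposited exon width, by group, on a log axis, with bars for SD. Atf4 is highest at 66.3 CPM per kilobase over all libraries and Chac1 lowest at 0.302, with all 20 synthetases between 7.99 and 44.1.

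Promoter sequences were read for the members that RefSeq's promoter table held on GRCm38.p6, 26 of the 33, from 250 bases before to 50 bases after the gene's start; Cars, Hars, Lars, Nars, Rars, Vars and Wars were not matched. Atf4 with a C/EBP partner binds a composite element whose core was searched as TGATGNAA on both strands, and Myc with Max binds the E-box CACGTG, which reads the same on both strands. TGATGNAA was found in 5 of 13 matched synthetase promoters (Aars, Gars, Iars, Tars and Yars) and in 4 of 13 stress gene promoters (Asns, Trib3, Chac1 and Nupr1), against 1304 of 32851 promoters of the same length (3.97%). CACGTG was found in 4 of 13 matched synthetase promoters (Aars, Iars, Tars and Farsb) and in 1 of 13 stress gene promoters (Nupr1), against 2349 of all promoters (7.15%). A match is a description of the letters and not a binding site.

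Stretches of 100 bases are shown to set side by side 5 genes called higher in Grhl2KO_Myc against wildtype kidneys, 4 with a match and Mars without one, and Tars, Aars, Chac1 and Nupr1, which hold the core but were not called. Capitals mark TGATGNAA, the same core read on the opposite strand, or CACGTG; each is written 5′ to 3′ on the gene's own strand. Positions are counted from the start in RefSeq's table, which can differ from that in GENCODE. Asns lies at chr6:7693210-7693309 on the minus strand with its match starting at position -23 from the RefSeq start. The GENCODE range of Asns given above reaches 7693254, so this match lies within it. Gars lies at chr6:55037901-55038000 on the plus strand and Iars at chr13:49682030-49682129 on the plus strand. Farsb lies at chr1:78488898-78488997 on the minus strand and Mars, which has no match, at chr10:127311787-127311886 on the minus strand.
Asns: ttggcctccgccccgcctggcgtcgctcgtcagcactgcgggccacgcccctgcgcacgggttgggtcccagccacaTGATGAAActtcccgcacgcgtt
Gars: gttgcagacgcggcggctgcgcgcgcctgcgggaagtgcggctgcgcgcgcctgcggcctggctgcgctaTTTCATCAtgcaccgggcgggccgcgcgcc
Iars: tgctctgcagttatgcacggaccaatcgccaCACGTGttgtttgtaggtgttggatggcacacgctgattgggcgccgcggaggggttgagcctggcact
Farsb: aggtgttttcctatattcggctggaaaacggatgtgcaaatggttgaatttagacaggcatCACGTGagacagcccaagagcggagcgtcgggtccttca
Mars: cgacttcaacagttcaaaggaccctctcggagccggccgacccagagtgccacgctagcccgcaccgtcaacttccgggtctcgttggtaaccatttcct
Tars lies at chr15:11399659-11399758 on the minus strand, Aars at chr8:111033682-111033781 on the plus strand, Chac1 at chr2:119351012-119351111 on the plus strand and Nupr1 at chr7:126625521-126625620 on the minus strand.
Tars: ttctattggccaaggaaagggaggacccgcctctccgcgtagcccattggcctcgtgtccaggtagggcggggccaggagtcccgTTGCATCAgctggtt
Aars: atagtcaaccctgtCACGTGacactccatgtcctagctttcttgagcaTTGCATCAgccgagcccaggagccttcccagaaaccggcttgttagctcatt
Chac1: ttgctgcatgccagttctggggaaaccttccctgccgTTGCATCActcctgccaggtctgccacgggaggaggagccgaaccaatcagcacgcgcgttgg
Nupr1: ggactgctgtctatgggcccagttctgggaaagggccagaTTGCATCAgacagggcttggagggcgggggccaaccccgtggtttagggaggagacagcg
Genes with and without the core were found on both sides of the test: of the 5 synthetases with TGATGNAA, Gars, Iars and Yars were called higher and Aars and Tars were not, and of the 4 stress genes with it Asns alone was called. The TGATGNAA match of Iars starts at position 8 after the start and lies outside the stretch shown. Mars, Kars and Farsa were called higher without either motif in this window.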

How the data were processed

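Whole-kidney polyadenylated RNA was made into libraries with the TruSeq RNA kit v2, per the labels' protocols. The authors deposited a table of raw read counts per gene with the gene's exon width. Reads were aligned with HISAT2 to mm10, per the submitters' processing notes; the counting program was not given in the sources used here. This kit does not mark strand.

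Counts as deposited were fitted in edgeR 4.0.16 (R 4.3.3) over all 12 libraries, with TMM scaling, the default filterByExpr filter, a group term and the quasi-likelihood F test. P-values were adjusted by Benjamini-Hochberg over all 23742 genes tested, and genes under 0.05 were called. CPM values use TMM-scaled library sizes. Standard errors were derived from the fitted difference and its F statistic. Totals of 52973520 to 108164810 counts per library set the counting precision. The fit was checked on simulated counts: at 1.5-fold, 68.7% of changed genes were recovered for Grhl2KO_Myc against wildtype, 59.7% for Grhl2KO_Myc against Myc and 67.2% for Myc against wildtype.

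All 33 members were named or counted. Values per library are given for called members, stress regulators and effectors; of other lists, up to 4 genes with the smallest adjusted p are described. The members and lists were chosen with earlier results of these data known. Alternatives were RLE and upper-quartile scaling, other filters (including 1 CPM in 3 libraries), DESeq2 1.42.0, limma-voom 3.58.1, fewer groups, a replicate block, covariates and leaving out libraries. Xist detection as a covariate, and the alternatives for the further Atf4 targets and mitochondrial synthetases, were chosen after seeing the data. Gene positions come from GENCODE on GRCm38, the same build as mm10. Replicates differed by more than sampling noise (lowest chi-square per degree of freedom 12.69).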

Additional observations from a re-analysis of the deposited data

Results flagged for a closer look

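In 66 tests of the highest and lowest kidney within the Grhl2KO_Myc and wildtype groups over the 33 genes, 8 found a kidney far from the others of its group, where chance gives about 5% of groups. All 8 were kidney wildtype 4, at the high end, so they are not independent. This kidney also stood apart over all genes. Its chi-square per degree of freedom was 70.85 to 135.4 against the other wildtype kidneys, and 15.11 to 36.54 among those. The share of all genes with such a kidney was not counted. Among synthetases, wildtype 4 had 105.8 CPM of Gars, 50.56 CPM of Hars and 115.8 CPM of Nars, against at most 90.79, 45.13 and 107.7 CPM in the other wildtype kidneys. Among stress genes, it had 154.9 CPM of Atf4, 31.6 CPM of Atf5, 58.18 CPM of Ddit4, 24.55 CPM of Cebpb and 11.37 CPM of Asns, against at most 106.9, 27.49, 31.62, 15.35 and 9.261 CPM in the other wildtype kidneys. Its Atf4 level was 1.497-fold and its Ddit4 level 2.03-fold the mean of the other 4. The same kidney had the lowest proximal tubule score of all 12, -1.15; the part of this in its values was not tested. None of the other genes had such a kidney in either group, Mars, Rars, Vars and Farsa among them.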

How the results depend on the processing

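Asns and Mars were called higher in Grhl2KO_Myc than in wildtype kidneys under all 24 alternatives, and Rars, Vars and Farsa under 23, all but Xist detection as a covariate (adjusted p = 0.0747, 0.0746 and 0.066), which was chosen after seeing the data. Iars was called under 20, Yars 18, Farsb 17, Gars 15, Kars 12, and Cars and Hars 7 each. No called gene changed direction. For Grhl2KO_Myc against wildtype, the count over all genes (1584) was 2703 in DESeq2, 995 with only those groups fitted, 993 with the replicate block, 998 with Ddx3y and 556 with Xist detection as a covariate, and 750 to 3778 with 1 library left out. The 12 members became 2 with the Xist covariate and 5 to 20 with 1 library left out. The 11 synthetases became 7 with only those groups fitted and 7 with the Ddx3y covariate and 1 with the Xist covariate; with 1 library left out they were 4 to 15, with 4 without Grhl2KO_Myc 3 or 4, 5 without wildtype 2 or 3, 6 without wildtype 1, and 7 without Grhl2KO_Myc 2 or wildtype 5. The 1 stress gene became 3 in DESeq2, 4 without the 3 kidneys low in proximal tubule transcripts and 1 to 5 with 1 library left out; without wildtype 4, Asns, Atf4, Atf5 and Trib3 were higher and Eif2ak3 lower.

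For Grhl2KO_Myc against Myc, the 200 genes became 777 in DESeq2, 88 with the replicate block, 318 without the 3 kidneys, 109 with the Xist covariate, and 70 to 703 with 1 library left out. The 1 member, a synthetase, became 0 without a filter, with the block, with the Xist covariate and without the 3 kidneys; DESeq2 called 7 members (4 synthetases, 3 stress genes). With 1 library left out, members were 0 to 7, synthetases 0 to 5 and stress genes 0 to 2. For Myc against wildtype, the 1 gene became 44 in DESeq2, 0 in limma-voom, with only those groups fitted, with the block and with the Ddx3y or Xist covariate, and 0 to 6 with 1 library left out; no member was called in any. The cause of these changes was not tested. Deviations of same-numbered kidneys from their group means had correlations of -0.11 to 0.23. Differently numbered kidneys were not compared, so this cannot decide whether the numbers pair kidneys. With the replicate block 11 members were called against wildtype. Group sizes of 3 to 5 limit what small differences can pass.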
